A study of Mus musculus with 24 samples.

Results

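The transcriptional response of mouse embryonic stem cells (ESCs) to retinoic acid (RA) was compared between a BAP1-AID and a UTX-AID clone. For every gene, the log2 change from 0 h to 6 h of RA in BAP1-AID was subtracted from the same change in UTX-AID, so that a negative difference stands for a smaller rise or a larger fall in UTX-AID. This used 16 of the 24 libraries, with 4 libraries in each of the 4 combinations of clone and RA time. In BAP1-AID ESCs the endogenous BAP1, the catalytic subunit of a complex that removes ubiquitin from histone H2A, carries an HA-AID degron at its C terminus. In UTX-AID ESCs the endogenous UTX, a histone H3K27 demethylase encoded by Kdm6a, carries the HA-AID tag at its N terminus. Cells of both clones express the ubiquitin ligase TIR1, so that the auxin IAA drives the tagged protein to the proteasome. They were kept in serum with LIF, pretreated with or without IAA, and moved to RA without LIF. Each clone and RA time was thus represented by 2 -IAA and 2 +IAA libraries of poly(A) RNA, and the -IAA cells carry the tag and TIR1 as well.

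RA is a small lipid hormone made from vitamin A. It binds nuclear receptors (RARs) that sit on DNA as heterodimers with RXRs, on direct repeats of a short half-site, and ligand binding exchanges corepressors for coactivators. In ESCs the first genes to respond include enzymes that break RA down, RAR genes themselves and the Hox genes at the early end of the Hox clusters, and withdrawal of LIF with RA starts their differentiation.

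The RA response was smaller in UTX-AID than in BAP1-AID for most of the genes at which the clones differed. Of 16506 genes tested, 72 (0.436%) were called with a lower and 21 (0.127%) with a higher log2 response in UTX-AID, 93 genes in all (0.563%; edgeR quasi-likelihood test, adjusted p under 0.05 and a difference beyond 1 on the log2 scale). By the adjusted p alone these were 357 (2.16%) and 122 (0.739%). Among the 93, 69 rose with RA and rose less in UTX-AID. Another 17 fell with RA in BAP1-AID, and in UTX-AID fell less, did not fall or rose without being called. A larger response in UTX-AID was found for 3 genes, and the other 4 were called as RA-responsive in neither clone. No gene was called higher with RA in one clone and lower in the other. The difference had the same sign without and with IAA for all 93 genes, and the 12 genes (0.0727%) at which it depended on the IAA arm were not among them. The genes were called on the average of these same arms, so that like signs are largely given by the selection. Over all genes tested, the median difference was -0.016 and 53.2% of the genes lay below 0.

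**Figure D1:**
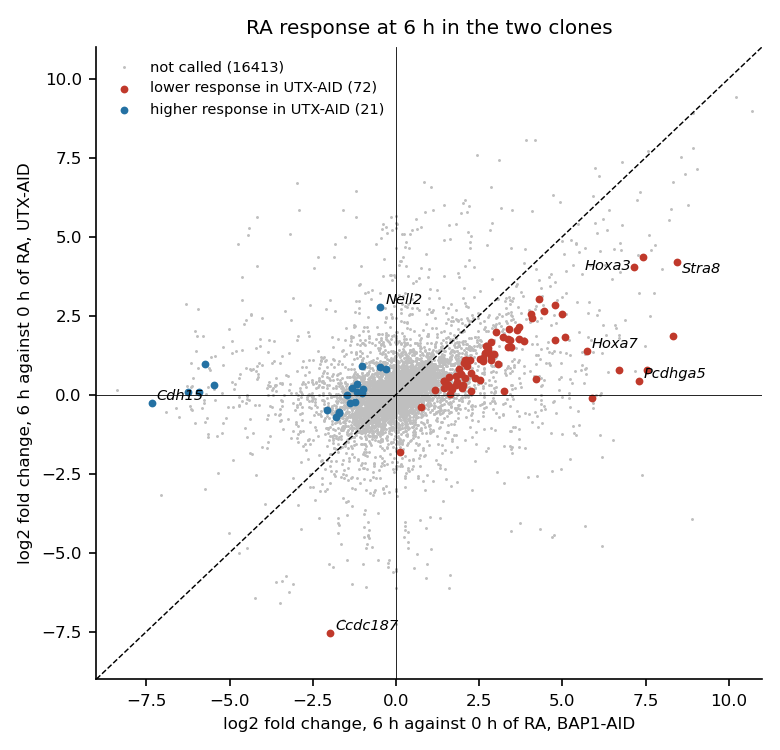
Log2 fold change from 0 h to 6 h of RA in BAP1-AID (x axis) and in UTX-AID (y axis) for all 16506 genes tested, with the 72 genes of lower response in UTX-AID in red and the 21 of higher response in blue. Most red points lie between the x axis and the dashed line of equal response, where both clones respond and UTX-AID responds less.

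The library totals were 44198225 to 52766527 estimated counts, with a median of 50390350, so that 3 counts in a library correspond to 0.0569 to 0.0679 normalised counts scaled to library size (CPM). The summed level of 9 ESC markers was 4152 to 4817 CPM in the 16 libraries. The summed level of the 6 fibroblast markers tested was 9.97 to 14.1 CPM in BAP1-AID and 4.85 to 8.62 CPM in UTX-AID, with 3 of the 6 under 1 CPM in every library. The 7 extraembryonic endoderm markers summed to 4.90 to 8.04 CPM at 0 h and 9.52 to 10.6 CPM at 6 h in BAP1-AID. In UTX-AID they summed to 2.82 to 6.17 CPM at 0 h and 3.83 to 5.75 CPM at 6 h. Of the 7, Gata6 alone was called higher with RA, in both clones, and it was called for a weaker rise in UTX-AID. The mean of Gata6 went from 0.306 to 4.44 CPM in BAP1-AID and from 0.571 to 1.87 CPM in UTX-AID. The rise of the sum in BAP1-AID was thus largely that of this gene. The 8 trophoblast markers summed to 22.4 to 30.5 CPM in BAP1-AID and 16.5 to 23.7 CPM in UTX-AID. Whether cells of these kinds have a part in the clone difference was not tested. In bulk RNA, fewer responding cells and less RNA per cell cannot be told apart.

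The labels name 1 line for each tagged protein, and the methods describe lines grown from single positive cells. The clone, the tagged protein, the culture history and the preparation of its libraries therefore go together and cannot be told apart in any comparison of the clones. The labels do not say whether the 2 libraries of a group came from separate cultures, so that the p-values measure only the spread between these samples. Before RA the clones already differed at 2478 genes (15%) that were higher and 1361 (8.25%) that were lower in UTX-AID. After 6 h of RA these numbers were 2369 (14.4%) and 1351 (8.18%). The mRNA of Bap1 itself was 98.8 to 102 CPM in BAP1-AID and 78.3 to 86.0 CPM in UTX-AID at 0 h. The level of Kdm6a at 0 h was 60.0 and 63.7 CPM in BAP1-AID without IAA, 101 and 103 CPM in BAP1-AID with IAA, and 110 to 124 CPM in UTX-AID. Neither Bap1 nor Kdm6a had a different RA response (difference -0.06, adjusted p = 0.783, and -0.06, adjusted p = 0.832), and degradation acts on the protein, which RNA-seq does not show.

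The RA response as a whole was compared on genes chosen without favouring a clone, namely those called on the average of both. Of the 503 genes (3.05%) that rose on average, 406 (80.7%) had the larger log2 rise in BAP1-AID. The median log2 rise was 2.21 in BAP1-AID against 1.52 in UTX-AID, and the median difference was -0.74 over all libraries, -0.65 without IAA and -0.70 with IAA. Among these 503 genes, 60 were called with a lower and 1 with a higher response in UTX-AID. The 198 genes (1.2%) that fell on average were less one-sided, since 123 (62.1%) fell further in BAP1-AID, with medians of -1.60 and -1.21. Counted within each clone, 567 genes (3.44%) rose and 262 (1.59%) fell in BAP1-AID, and 310 (1.88%) rose and 120 (0.727%) fell in UTX-AID. A smaller log2 rise was thus measured for most induced genes and not for the called genes alone, and it was of similar size in both IAA arms. The median clone difference in level of the 503 genes was 0.40 at 0 h and -0.22 at 6 h. The smaller log2 rise thus holds a higher start in UTX-AID as well as a lower level after RA.

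The 503 genes were also divided by their level before RA. The 241 genes at 1 CPM or more at 0 h in at least 1 clone had a median difference of -0.54, and 205 of them (85.1%) rose further in BAP1-AID. The 262 genes under 1 CPM in both clones had a median difference of -1.12, and 201 (76.7%) rose further in BAP1-AID. Of these 262 genes, 20 were called.

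Because the difference in response equals the clone difference at 6 h minus the clone difference at 0 h, the 69 induced genes with a weaker rise were divided by their level at 0 h. In 36 of them the clones were not called different before RA. In 31 UTX-AID started higher (15% of all genes), and in 2 (Pknox2 and Arhgef26) it started lower (8.25% of all genes). The same 0 h libraries enter both values, so that a chance deviation at 0 h moves them in opposite directions. Of the 36 genes with no call at 0 h, 21 were lower in UTX-AID at 6 h (8.18% of all genes) and 15 were called at neither time. These genes were chosen for a lower response, so that with no call at 0 h a lower level at 6 h is largely given by the selection. Of the 31 that started higher in UTX-AID, 6 were lower at 6 h, 17 were not called at 6 h and 8 were still higher (14.4% of all genes).

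**Figure D2:**
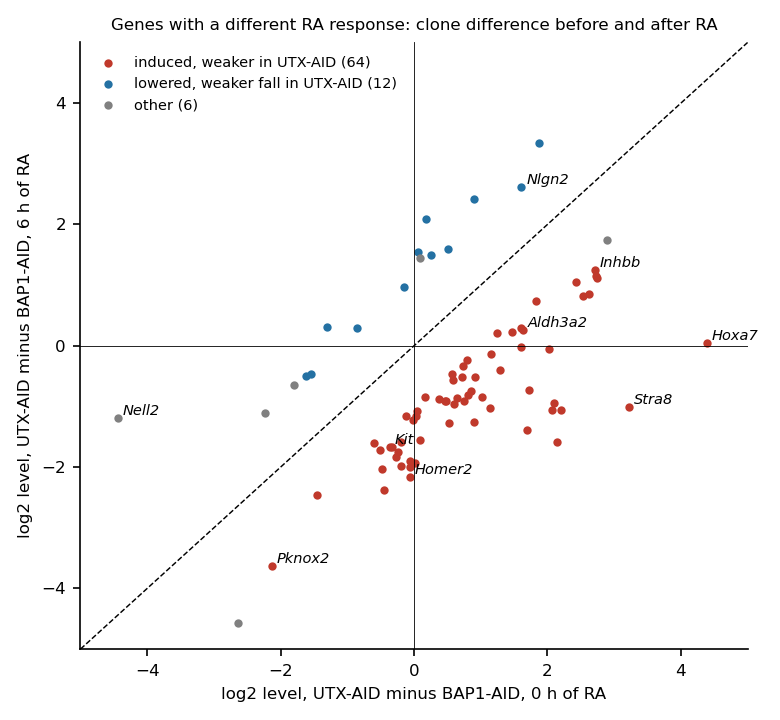
Clone difference in log2 level (UTX-AID minus BAP1-AID) at 0 h (x axis) and at 6 h of RA (y axis) for 82 of the 93 genes with a different RA response, leaving out 11 with a group at 0 in all 4 libraries. Red points, induced genes with a weaker rise in UTX-AID, lie below the dashed line of equal difference, from genes near 0 before RA such as Homer2 to genes far higher in UTX-AID at 0 h such as Inhbb.

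The clearest case of equal starting levels was Dusp9 (chr X, 72679169 to 72687124, plus strand, mm39, protein-coding), which encodes a phosphatase that inactivates ERK. Its level at 0 h was 39.4, 42.9, 43.0 and 39.9 CPM in BAP1-AID and 43.4, 42.8, 41.4 and 40.3 CPM in UTX-AID, giving the -IAA libraries first here and below. At 6 h it was 294, 288, 315 and 299 CPM in BAP1-AID and 137, 145, 129 and 126 CPM in UTX-AID. The ranges of the clones overlapped at 0 h and were far apart at 6 h, in both arms. Dusp9 rose 7.24-fold in BAP1-AID and 3.20-fold in UTX-AID, a difference of -1.18 on the log2 scale (SE 0.067, adjusted p = 2.48e-12).

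Kit (chr 5, 75735576 to 75817404, plus strand, protein-coding), the receptor for stem cell factor, started slightly lower in UTX-AID and ended far lower. Its level was 21.0, 22.1, 25.2 and 28.0 CPM at 0 h and 151, 155, 170 and 176 CPM at 6 h in BAP1-AID. In UTX-AID it was 18.4, 16.3, 20.8 and 19.0 CPM at 0 h and 51.7, 50.3, 50.04 and 53.4 CPM at 6 h. All UTX-AID libraries lay below all BAP1-AID libraries at both times, by a log2 difference of -0.36 before RA and -1.66 after it. The rise was 6.80-fold against 2.76-fold, a difference of -1.30 (SE 0.082, adjusted p = 1.23e-11).

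Homer2, a scaffold protein of synapses, was at 6.31 to 9.04 CPM in BAP1-AID and 6.12 to 9.97 CPM in UTX-AID at 0 h. After 6 h of RA it was at 60.3, 56.6, 79.1 and 78.8 CPM in BAP1-AID and at 14.2, 16.6, 14.5 and 14.9 CPM in UTX-AID (difference -2.11, SE 0.164, adjusted p = 2.12e-08). Its ranges thus coincided before RA and were separate after it. Llgl2, a regulator of epithelial polarity on chr 11 (115714823 to 115746611, plus strand), was 14.2 to 16.8 CPM in BAP1-AID and 19.3 to 25.4 CPM in UTX-AID at 0 h. With RA it was 93.3, 97.5, 88.6 and 83.4 CPM in BAP1-AID and 50.5, 50.5, 45.8 and 46.4 CPM in UTX-AID, so that the order of the clones was turned (difference -1.39, SE 0.085, adjusted p = 6.77e-12). Llgl2 was called different at neither time. Dusp9, Kit and Homer2 were among the 21 genes with no call at 0 h and a lower level in UTX-AID at 6 h, and so were Aurkc, a kinase of meiotic chromosome segregation (2.50 to 42.5 CPM in BAP1-AID and 2.67 to 14.5 CPM in UTX-AID, as means of 4), and Greb1l (3.32 to 43.4 CPM and 2.73 to 11.97 CPM). Efnb1, a ligand of Eph receptors, went from 2.74 to 11.7 CPM and from 1.99 to 2.84 CPM.

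Stra8, named for its stimulation by RA and needed for entry into meiosis, had the largest difference among the genes with a small error. It lies on chr 6 (34897098 to 34916279, plus strand). Its level at 0 h was 0.225, 0.570, 0.194 and 0.390 CPM in BAP1-AID and 3.67, 3.11, 3.54 and 2.54 CPM in UTX-AID. At 6 h it was 105, 110, 133 and 132 CPM in BAP1-AID and 63.7, 63.5, 55.7 and 55.0 CPM in UTX-AID. UTX-AID thus started above BAP1-AID and ended below it, with no overlap at either time. The rise was 347-fold in BAP1-AID and 18.5-fold in UTX-AID (difference -4.23, SE 0.201, adjusted p = 2.48e-12). The clone difference was 3.22 at 0 h and -1.01 at 6 h, so that the level at 0 h made up most of it.

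For 7 of the 69 induced genes the weaker log2 rise went with a larger rise in CPM, all of them genes that were higher in UTX-AID at 0 h (Clgn, Gcnt3, Halr1, Inhbb, Pcdhga5, Tcp11 and Tle6). Inhbb, the beta B subunit of activins and inhibins (chr 1, 119343193 to 119350021, minus strand), was at 3.98, 2.63, 2.85 and 2.85 CPM in BAP1-AID and at 20.6, 19.7, 19.0 and 21.4 CPM in UTX-AID before RA. After 6 h of RA it was at 19.6, 19.5, 19.2 and 17.7 CPM in BAP1-AID and at 47.1, 42.4, 42.5 and 47.8 CPM in UTX-AID. BAP1-AID after RA reached about the level UTX-AID had before it, and the mean rose by 15.9 CPM in BAP1-AID and by 24.8 CPM in UTX-AID. Relative to the start this was 6.17-fold against 2.23-fold (difference -1.47, SE 0.129, adjusted p = 1.01e-08). Clgn, a chaperone of the testis endoplasmic reticulum, rose from 3.66 to 23.5 CPM in BAP1-AID and from 19.7 to 48.8 CPM in UTX-AID (means of 4). For the other 62 induced genes the rise in CPM was smaller in UTX-AID too, including all 36 with no call at 0 h. For those 36 the selection for a lower log2 response largely gives this.

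Aldh3a2, a fatty aldehyde dehydrogenase, was at 13.1, 14.2, 8.63 and 8.12 CPM in BAP1-AID and at 33.4, 29.2, 36.9 and 33.9 CPM in UTX-AID before RA. With RA it was at 36.1, 37.3, 28.0 and 32.6 CPM and at 37.7, 37.9, 43.2 and 40.6 CPM. RA thus brought BAP1-AID near the level of UTX-AID, which hardly moved (difference -1.38, SE 0.111, adjusted p = 2.3e-09). Foxn4, a forkhead factor of neural progenitors, was likewise high before RA in UTX-AID, with means of 7.45 CPM at 0 h and 9.16 CPM at 6 h against 1.28 and 5.21 CPM in BAP1-AID. Of the 69 genes, 37 were called higher with RA in both clones and 32 in BAP1-AID alone.

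**Figure D3:**
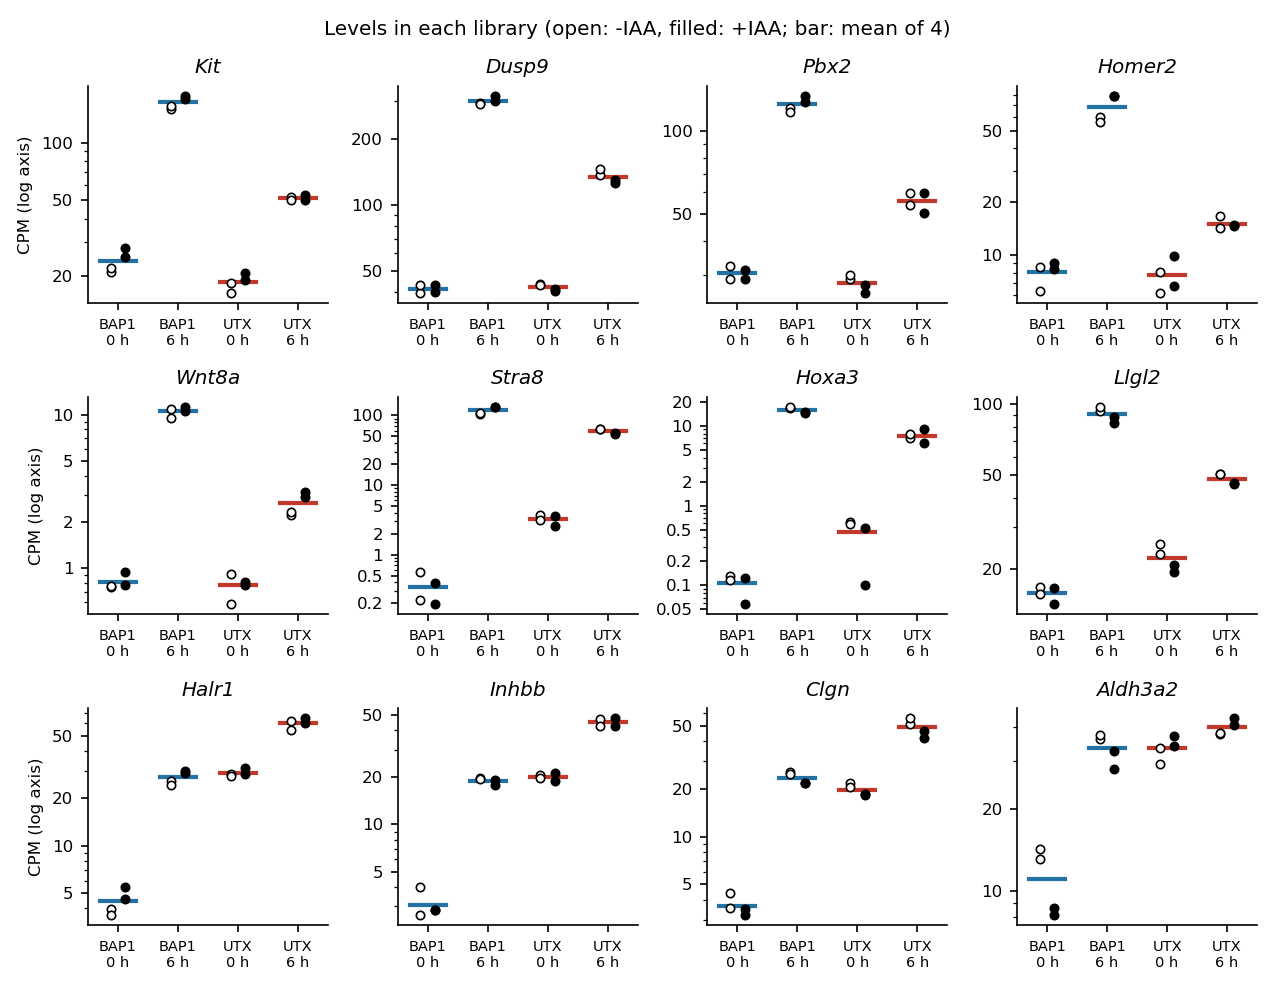
CPM on log axes for 12 induced genes with a weaker response in UTX-AID in each of the 16 libraries, as open (-IAA) and filled (+IAA) points with the mean of 4 as a bar. Dusp9, Pbx2, Homer2 and Wnt8a overlap before RA and are apart after it, Kit starts slightly lower and ends far lower in UTX-AID, Stra8 and Llgl2 start higher and end lower in UTX-AID, and Halr1, Inhbb and Clgn are higher in UTX-AID at both times.

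Among 11 genes of RA breakdown and feedback, 10 rose with RA in BAP1-AID and 9 in UTX-AID, against 3.44% and 1.88% of all genes. Of the 11, 2 were called with a weaker response in UTX-AID, Stra8 among them, against 0.436% of all genes. The difference was below 0 for 10 of the 11, with a median of -0.92 against -0.016 for all genes. Among the 503 genes that rose on average it was below 0 for 80.7%, with a median of -0.74, and 60 were called lower. Most of this difference is thus shared by induced genes in general. A smaller difference below the size threshold was found for Dhrs3, which reduces retinal (-0.68, SE 0.161, adjusted p = 0.0155), and for Nrip1, a corepressor that RA induces (-0.84, SE 0.179, adjusted p = 0.0199).

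Cyp26a1, the enzyme that hydroxylates RA for removal, was at 1.202, 1.08, 0.873 and 0.861 CPM in BAP1-AID at 0 h and at 473, 481, 503 and 506 CPM at 6 h. In UTX-AID it was at 0, 0.706, 0.909 and 0.659 CPM and at 123, 128, 139 and 132 CPM. The clones were clearly apart at 6 h (difference in level -1.91, SE 0.167, adjusted p = 1.16e-06), while the difference in response did not pass the test (-1.10, SE 0.486, adjusted p = 0.345), with 1 UTX-AID library at 0 before RA. Rarb, the receptor gene that RA induces through its own receptors, was also apart at 6 h. It was at 13.2 to 18.4 CPM in BAP1-AID and 4.805 to 5.72 CPM in UTX-AID at 6 h, from 0 to 0.492 CPM and 0.105 to 0.681 CPM at 0 h (difference in response -2.18, SE 0.794, adjusted p = 0.228). Cyp26b1 had a difference of 1.2 (SE 0.608, adjusted p = 0.4) in the other direction, with 2 UTX-AID libraries at 0 before RA. At 6 h its level was lower in UTX-AID, with means of 18.5 CPM in BAP1-AID and 8.20 CPM in UTX-AID (difference in level -1.17, adjusted p = 2.89e-05). Its difference in response was 6.22 without IAA, the arm of the libraries at 0, and -0.36 with IAA. Cyp26c1 was at 0 in all 8 libraries at 0 h and rose at least 50.4-fold in BAP1-AID and at least 28.6-fold in UTX-AID, taking 3 counts per library as the floor.

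The promoters were searched for direct repeats of the receptor half-site with spacers of 5, 2 or 1 bases, on both strands of the 300 bases around each start site (RefSeq, GRCm38.p6). A half-site could be spelled AGGTCA as in the general motif. It could also be spelled AGTTCA in this search. The spelling GGGTCA was allowed as well. So was the spelling GGTTCA in either place. Of 12890 genes tested that had a promoter in the table, 59 (0.458%) held such a repeat. It was found for 5 of 361 genes that rose with RA on average (1.39%). For the induced genes with a weaker response in UTX-AID it was found for 0 of the 42 with a promoter in the table, which says only that these letters are not in these windows. The repeats of Rarb and Cyp26a1 have a spacer of 5, and the others 2. The 5 repeats are shown because they are the receptor half-site repeats next to the start sites of induced genes, on the strand of the gene with the repeat in capitals.
Rarb (chr14:16575506-16575535, minus strand, first base of the repeat 53 bases upstream of the start): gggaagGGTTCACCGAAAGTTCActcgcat
Cyp26a1 (chr19:37697770-37697799, plus strand, 32 bases upstream): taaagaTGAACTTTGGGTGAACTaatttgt
Tinagl1 (chr4:130175208-130175237, minus strand, 107 bases upstream): ccagcccaGGGTCACTGGGTCAaggatgtg
Ano1 (chr7:144738624-144738653, minus strand, 72 bases upstream): gctgcaggTGACCCCGTGACCCccggggcg
1810020O05Rik (chr6:87722950-87722979, minus strand, 224 bases upstream): gagctcctAGTTCAAAAGTTCAtactcctc
The difference in response of these genes was -2.18 for Rarb, -1.10 for Cyp26a1, -0.79 for Tinagl1, 0.11 for Ano1 and -0.77 for 1810020O05Rik, and none of the 5 passed the test.

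The genes of retinoid synthesis and the receptors themselves gave little. Of 10 genes of retinoid synthesis and binding, 0 were called for the difference by edgeR and 0 by DESeq2, and 0 had an unadjusted p under 0.05. Of all 16506 genes tested, 1478 had an unadjusted p under 0.05 with a lower and 816 with a higher response in UTX-AID. Of 14 receptor and corepressor genes, 0 were called by either tool, and 4 had an unadjusted p under 0.05. Rara, an RAR gene, rose by 1.12 in BAP1-AID and 0.96 in UTX-AID on the log2 scale (difference -0.16, SE 0.105, adjusted p = 0.553). Its level was lower in UTX-AID at both times, with means of 28.2 and 54.5 CPM against 50.4 and 110 CPM. The orphan receptor Nr6a1, which silences pluripotency genes, rose from 121 to 337 CPM in BAP1-AID and from 68.3 to 148 CPM in UTX-AID (difference -0.36, SE 0.087, adjusted p = 0.0176), and Nr2c1 had a difference of -0.71 (SE 0.172, adjusted p = 0.0176), both below the size threshold.

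Hox genes encode the homeodomain factors that set position along the body axis, and RA opens the clusters from their early end. In each clone 19 of the 31 Hox genes tested rose with RA, against 3.44% of all genes in BAP1-AID and 1.88% in UTX-AID. Of the 31, 3 were called for a weaker rise in UTX-AID (0.436% of all genes), among them Hoxa3 and Hoxa7 of the Hoxa cluster on chr 6. Hoxa3 went from 0.0582 to 0.131 CPM at 0 h to 14.5 to 17.3 CPM at 6 h in BAP1-AID, and from 0.0998 to 0.629 CPM to 6.10 to 9.02 CPM in UTX-AID, where 1 library at 0 h lay within the BAP1-AID range (difference -3.13, SE 0.440, adjusted p = 9.9e-05). Hoxa7 was at 0 in 3 of 4 BAP1-AID libraries at 0 h and ended at 1.189 to 2.74 CPM in BAP1-AID and 1.56 to 2.05 CPM in UTX-AID, so that its difference (-4.35, SE 0.802, adjusted p = 0.00163) rests on the level before RA.

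The Hoxa and Hoxb clusters differed in their level before RA. Of 11 Hoxa genes tested, 7 were higher in UTX-AID at 0 h and 0 lower, and of 10 Hoxb genes 0 were higher and 1 lower, against 15% and 8.25% of all genes. All 10 Hoxb genes rose with RA in both clones, and the difference in response was below 0 for 9 of them, with a median of -1.24. For Hoxa the difference was below 0 for 10 of 11 genes, with a median of -2.49. The median was -0.74 for the 503 genes that rose on average. It was -1.12 for the 262 of those under 1 CPM in both clones at 0 h. Of the Hoxb genes 0 were called for the difference by edgeR or DESeq2. An unadjusted p under 0.05 was found for 2 of them, beside 1478 lower and 816 higher of all 16506 genes. The median SE was 1.10 for the Hoxb genes and 0.155 for all genes, and the means of the Hoxb genes at 0 h were 0 to 0.479 CPM in BAP1-AID and 0 to 0.325 CPM in UTX-AID. At 6 h, 5 of the 10 Hoxb genes and 4 of the 11 Hoxa genes were lower in UTX-AID, against 8.18% of all genes, and 0 Hoxb and 3 Hoxa genes were higher, against 14.4%. Among the lower genes were Hoxa5 with means of 26.1 CPM in BAP1-AID and 12.2 CPM in UTX-AID, and Hoxb5 with 11.9 and 4.06 CPM. Hoxb1, the early gene of its cluster, had means of 13.4 CPM in BAP1-AID and 8.30 CPM in UTX-AID at 6 h (difference in response -1.59, SE 1.26, adjusted p = 0.67).

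A noncoding RNA of the early end of the Hoxa cluster was called with a weaker rise too. Halr1 (chr 6, 52056776 to 52115615, plus strand, lncRNA) was at 3.96, 3.62, 5.49 and 4.61 CPM in BAP1-AID and at 28.5, 27.8, 31.1 and 28.5 CPM in UTX-AID at 0 h. With RA it was at 25.6, 24.4, 29.0 and 29.7 CPM and at 54.5, 62.1, 60.6 and 64.9 CPM. BAP1-AID after RA came to the level of UTX-AID before it (difference -1.56, SE 0.102, adjusted p = 2.15e-11).

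The TALE homeodomain proteins bind DNA together with Hox proteins. Of 11 tested, 5 rose with RA in BAP1-AID (3.44% of all genes) and 1 in UTX-AID (1.88%). A weaker response in UTX-AID was called for 3 of the 11, against 0.436% of all genes. Pbx2 (chr 17, 34810240 to 34816375, plus strand) was at 32.6, 29.2, 31.5 and 29.1 CPM in BAP1-AID and at 29.2, 30.1, 25.9 and 27.8 CPM in UTX-AID at 0 h. At 6 h it was at 121, 117, 128 and 134 CPM and at 54.1, 59.6, 50.7 and 59.5 CPM. The clones overlapped before RA, and after it every BAP1-AID library was higher (difference -1.04, SE 0.085, adjusted p = 2.66e-09). Meis1 rose from 2.58 to 3.31 CPM to 8.39 to 9.31 CPM in BAP1-AID, and was at 3.47 to 4.47 CPM and 4.20 to 5.35 CPM in UTX-AID (difference -1.27, SE 0.185, adjusted p = 8.11e-05). Pknox2 rose from 1.54 to 2.02 CPM to 5.11 to 6.58 CPM in BAP1-AID and stayed under 1 CPM in UTX-AID at both times (difference -1.49, SE 0.375, adjusted p = 0.0233, a call lost without any 1 of 6 libraries). Meis2 had a difference of -0.88 (SE 0.12, adjusted p = 5.2e-05), below the size threshold.

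**Figure D4:**
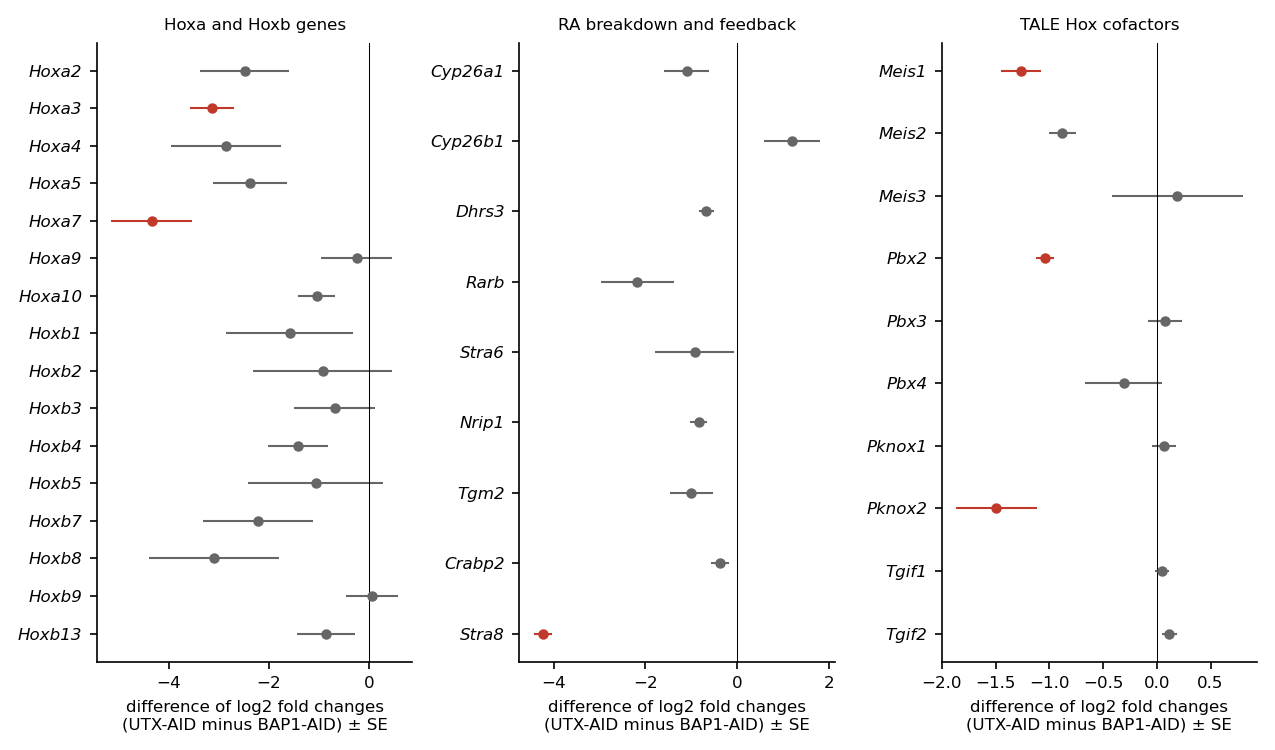
Difference of the log2 RA responses (UTX-AID minus BAP1-AID, x axis) with its standard error for Hoxa and Hoxb genes, genes of RA breakdown and feedback and TALE Hox cofactors above 1 CPM in at least 1 group, with called genes in red and some list members not shown. Most points lie left of 0 in the first 2 panels, with the widest errors for genes near 0 at 0 h, and the TALE genes divide into those near 0 and those near or below -1.

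Among the developmental lists, Gata6, a factor of primitive endoderm, and Wnt8a, a Wnt ligand of the gastrula, were the called genes. Wnt8a was at 0.751 to 0.943 CPM in BAP1-AID and 0.585 to 0.923 CPM in UTX-AID at 0 h. After 6 h of RA it was at 10.8, 9.48, 11.2 and 10.6 CPM in BAP1-AID and at 2.22, 2.32, 2.91 and 3.14 CPM in UTX-AID, apart by about 4-fold (difference in response -1.94, SE 0.253, adjusted p = 1.3e-05). Gata6 rose from 0.169 to 0.413 CPM to 3.76 to 5.03 CPM in BAP1-AID and from 0.242 to 0.965 CPM to 1.25 to 2.22 CPM in UTX-AID (difference -2.16, SE 0.478, adjusted p = 0.00826). These were 1 of 22 Wnt genes and 1 of 20 endoderm genes, and DESeq2 called Wnt3a of the Wnt list as well. Gata4, another endoderm factor, was at 0.558 to 1.94 CPM in all 16 libraries, with a difference of -0.10 (SE 0.517, adjusted p = 0.969). In the lists of mesoderm and caudal genes (15 tested), neural genes (22), BMP (15), Nodal (13) and FGF-ERK output (22), 0 genes were called by edgeR and 0 by DESeq2. An unadjusted p under 0.05 was found for 2, 3, 3, 7 and 8 of them, beside 1478 lower and 816 higher of all 16506 genes. By the adjusted p alone, 0 mesoderm, 1 neural, 1 BMP, 0 Nodal and 2 FGF-ERK genes were lower in UTX-AID (2.16% of all genes). Higher by the same rule were 3 Nodal and 3 FGF-ERK genes, and 0 of the other 3 lists (0.739% of all genes).

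The pluripotency genes showed small differences. Of 23 core and naive pluripotency genes, 0 were called by edgeR or DESeq2, with a median difference of -0.02. Of the 23, 11 had an unadjusted p under 0.05, beside 1478 lower and 816 higher of all 16506 genes. Past the adjusted p alone were Nr0b1, a nuclear receptor of naive ESCs that rose by 0.99 in BAP1-AID and 0.35 in UTX-AID (difference -0.65, SE 0.081, adjusted p = 7.44e-06), Sox2 (-0.26, SE 0.060, adjusted p = 0.012) and Utf1 (0.38, SE 0.068). In the formative list, Fgf5 fell by 2.93 and 2.91 on the log2 scale, and Otx2 fell by 2.44 in BAP1-AID and by 3.33 in UTX-AID (difference -0.90, SE 0.190, adjusted p = 0.0228, below the size threshold). Of 19 formative and primed genes and 12 of LIF and STAT3 output, 0 were called by either tool, and 5 and 3 had an unadjusted p under 0.05. By the adjusted p alone, 1 formative gene was lower (Otx2) and 1 higher, and 3 LIF and STAT3 genes were lower and 0 higher. Of all genes, 2.16% were lower and 0.739% higher by this rule.

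The chromatin machinery showed small differences. Of 29 PRC2 and PRC1 subunits and 23 genes of the PR-DUB and UTX complexes, 0 were called by edgeR or DESeq2. In each list 0 were called as RA-responsive in either clone. For the difference, 9 and 2 had an unadjusted p under 0.05, beside 1478 lower and 816 higher of all 16506 genes. Cbx6 (0.51, SE 0.075), Jarid2 (-0.32, SE 0.070) and Mtf2 (-0.26, SE 0.065) passed the adjusted p alone. Of 15 genes of the two-cell-like state, 12 were higher in UTX-AID at 0 h, against 15% of all genes, and 0 were called for the difference in response by edgeR. DESeq2 called Tcstv3, and 3 had an unadjusted p under 0.05. Of 21 germline genes, 9 were higher in UTX-AID at 0 h, against the same 15%, and Stra8 alone was called for the response. Of 6 targets of the aryl hydrocarbon receptor, which indoles can activate, 0 were called by either tool, and 1 had an unadjusted p under 0.05.

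A weaker fall, no fall or a rise that was not called was found for 17 genes in UTX-AID. Nlrc4, a sensor of the inflammasome (chr 17, 74732433 to 74766165, minus strand), was at 6.87, 8.26, 7.99 and 8.74 CPM in BAP1-AID and at 9.29, 13.0, 11.8 and 11.2 CPM in UTX-AID at 0 h. With RA it was at 2.10, 2.23, 2.14 and 2.73 CPM and at 6.35, 6.92, 6.43 and 8.04 CPM. It thus fell 3.46-fold in BAP1-AID and 1.63-fold in UTX-AID (difference 1.08, SE 0.184, adjusted p = 0.000618). Jph4, a junctophilin of neurons, fell from 9.91 to 11.1 CPM to 3.01 to 5.09 CPM in BAP1-AID, and was at 2.80 to 4.61 CPM and 2.002 to 4.02 CPM in UTX-AID, where it was low before RA. The opposite held for Nlgn2, a postsynaptic adhesion protein, which fell from 3.70 to 6.63 CPM to 1.76 to 2.37 CPM in BAP1-AID and stayed at 13.9 to 15.96 CPM and 12.3 to 13.9 CPM in UTX-AID, a call lost without any 1 of 4 libraries. Of the 17 genes, 3 were lower, 4 higher and 10 not called in UTX-AID at 0 h, against 8.25% lower and 15% higher of all genes. At 6 h, 12 of the 17 were higher in UTX-AID, against 14.4% of all genes. The 17 were chosen for a positive difference in response, so that a higher level at 6 h is largely given by the selection.

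Further genes of this kind were Slc46a3, a lysosomal transporter (8.90 to 2.79 CPM in BAP1-AID and 5.27 to 3.45 CPM in UTX-AID, as means of 4, with a call lost without 1 BAP1-AID +IAA library at 6 h), Klc3, a kinesin light chain (3.08 to 1.39 CPM and 3.64 to 3.85 CPM), and Pla2g4c, a phospholipase A (1.36 to 0.678 CPM and 1.55 to 2.90 CPM). Pla2g4c thus rose in UTX-AID, by 0.91 on the log2 scale (adjusted p = 0.0187), below the size threshold. For Slc46a3 the difference in response was 0.53 without IAA (adjusted p = 0.471) and 1.82 with IAA (adjusted p = 0.000524). The arms were not called different (adjusted p = 0.265). Its UTX-AID level at 0 h was 7.34 and 7.06 CPM without IAA and 3.71 and 2.96 CPM with IAA. For 5 of the 17 (Mansc1, Cldn20, Mucl3, Gm1322 and Cdh15) all BAP1-AID libraries were at 0 after RA. Their means before RA were 0.110 to 0.405 CPM, so that the size of their fall is not known.

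The genes with a larger response in UTX-AID were few. Nell2, a secreted glycoprotein of neurons, was at 1.09 to 1.67 CPM in BAP1-AID at 0 h and 0.496 to 1.74 CPM at 6 h, and at 0 to 0.189 CPM and 0.377 to 0.547 CPM in UTX-AID. It rose in UTX-AID and remained below BAP1-AID on average (difference 3.25, SE 0.826, adjusted p = 0.0247, lost without any 1 of 3 libraries). Thbs2, a matrix glycoprotein, was at 4.0002 to 7.24 CPM in BAP1-AID at both times, and fell from 0.639 to 1.21 CPM to 0.156 to 0.449 CPM in UTX-AID (difference -1.93, SE 0.346, adjusted p = 0.00102). Ccdc187 fell at least 7.50-fold in UTX-AID, where it was at 0 in all 4 libraries after RA, and its mean went from 0.934 to 0.235 CPM in BAP1-AID. Mmp25, Garem2, Igip and Cldn5 were called for the difference and in neither clone alone, with differences of 1.13, 1.15, -1.15 and 1.36, and all but Garem2 lost their call when single libraries were left out.

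Some genes were at 0 in all 4 BAP1-AID libraries before RA, and their fitted fold is no measure of size. Against a floor of 3 counts per library, Pcdhga5, a clustered protocadherin, rose at least 6.67-fold in BAP1-AID and 1.35-fold in UTX-AID, where it was at 0.738 to 1.63 CPM before RA. Gcnt3, a glycosyltransferase of mucins, rose at least 4.37-fold in BAP1-AID and 1.71-fold in UTX-AID. Kctd14 was at 0 in 1 of 4 BAP1-AID libraries at 0 h and went from a mean of 0.0931 to 1.73 CPM in BAP1-AID and from 0.414 to 0.584 CPM in UTX-AID. In all, 11 of the 93 genes had a group at 0 in all 4 libraries.

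The libraries at 3 h of RA were not used to find the 93 genes, and give the level on the way. In them, 44 genes (0.262%) had a lower and 4 (0.0238%) a higher RA response in UTX-AID. The 21 induced genes with no call at 0 h and a lower level in UTX-AID at 6 h had a median clone difference of -0.12 at 0 h, -1.28 at 3 h and -1.66 at 6 h. All 21 lay below 0 at 3 h and 15 of them were called lower, against 7.93% of all genes. Kit, for instance, was at 102 ± 19.0 CPM in BAP1-AID and 42.8 ± 2.66 CPM in UTX-AID at 3 h (SD, n = 4), and Dusp9 at 163 ± 5.95 and 94.7 ± 10.7 CPM. Of the 15 genes called at neither time, 1 was called lower at 3 h and 12 lay below 0, with a median of -0.33. Of the 31 genes that were higher in UTX-AID at 0 h, 12 were still higher and 2 were lower at 3 h, against 14.6% and 7.93% of all genes. Of the 17 lowered genes, 7 were higher and 1 was lower at 3 h, against the same 14.6% and 7.93%.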

How the data were processed

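Poly(A) RNA of both clones was sequenced by the authors in 12 groups of 2 libraries (3 RA times, 2 IAA arms). Reads were mapped on mm39 using HISAT2 (version 2.2.1) and converted using SAMtools (version 1.19), and the authors deposited estimated counts per gene from StringTie (version 2.2.1), not normalized. The annotation and the strandedness are not given in the sources used here. All deposited estimated counts were whole numbers. They derive from coverage and were used as counts, for 26264 genes.

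The 16 libraries at 0 h and 6 h were fitted in R 4.3.3 with edgeR 4.0.16 (quasi-likelihood, robust, TMM factors 0.956 to 1.02, filterByExpr with a minimum count of 10 and total of 15), with a mean for each clone and RA time and an IAA term in each clone. The biological coefficient of variation was 11.6%. Adjusted p-values are Benjamini-Hochberg over the 16506 genes, and a call needed an adjusted p under 0.05 and an absolute log2 value over 1. Levels are CPM, which are not per length, so that genes are not compared with each other. The clone difference per IAA arm came from a fit of 8 group means, and values at 3 h from a fit of all 24 libraries (16816 genes). Replicates correlated at 0.982 to 0.986 across genes (log2 scale, Pearson), and their counts differed by more than sampling noise. The replicate numbers did not pair the libraries.

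The members and gene lists were chosen with earlier results of these data known. Named genes were those called, above 1 CPM in a group and of like sign in both IAA arms: by adjusted p the first 10 induced and 6 lowered with a weaker response, those with a stronger response, 4 called in neither clone, the 5 of largest difference, the called list members, and Bap1, Kdm6a, Cyp26a1, Hoxb1 and Gata4. Some genes that met this rule are not reported here. Other genes were named after their values were seen. On simulated counts for this comparison over 16506 genes, the fit recovered 44, 47, 47 and 50 of 50 genes changed by 1.2, 1.5, 2 and 3 on the log2 scale, and called 3 unchanged genes. The changed genes were drawn only from those with an average level above about 1 CPM. Recovery for genes of lower level was not measured. Coordinates are from GENCODE vM39 by symbol, matched for 88 of the 93 genes (83 protein-coding). Alternatives were DESeq2 1.42.0, RLE factors, no filter, other IAA terms, single arms, all 24 libraries, the replicate number as a block, a GC and length correction, the adjusted p alone, and leaving out each library. Tables were made with pandas 2.3.3 and figures with matplotlib 3.10.9 in Python 3.11.15.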

Additional observations from a re-analysis of the deposited data

Results flagged for a closer look

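In 7 of 146 combinations of a named gene and a group of 4 libraries, 1 library stood apart from the others by the ratio of its gap to the range (Dixon's test at the 95% level), about the number that chance gives. In BAP1-AID at 0 h, Inhbb was at 3.98 CPM in -IAA replicate 1 (2.63 to 2.85 CPM in the others), Jph4 at 9.91 CPM, Wnt8a at 0.943 CPM and Bap1 at 98.8 CPM in +IAA replicate 2, Hoxa7 at 0.131 CPM in -IAA replicate 1 and Hoxb1 at 0.155 CPM in +IAA replicate 1 (both at 0 in the others). In UTX-AID at 6 h, Gcnt3 was at 2.02 CPM in -IAA replicate 1 (1.11 to 1.25 CPM in the others).

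The RA response at 6 h differed between the clones, by the test of the difference itself, for 72 genes with a lower and 21 with a higher response in UTX-AID. That difference in turn depended on the IAA arm for 12 genes (0.0727%), of which 0 were among the 93. In the libraries at 3 h, outside the comparison, 44 genes (0.262%) had a lower and 4 (0.0238%) a higher response in UTX-AID than in BAP1-AID. The 3 h and 6 h responses share the 0 h libraries.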

How the results depend on the processing

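The direction of the difference held for all 32 called genes of the naming rule, under every alternative. The rule asked for a like sign in both IAA arms, so that the fits of single arms are no check of the direction. Beside the 72 genes called lower and 21 called higher in UTX-AID, the -IAA libraries alone gave 32 and 8, and the +IAA libraries alone 103 and 24. Of the 72 and 21 genes themselves, 24 and 3 were called with the -IAA libraries alone. With the +IAA libraries alone, 48 and 4 of them were called. A shared IAA coefficient gave 12 higher, DESeq2 37 higher. The adjusted p alone gave 357 lower and 122 higher, and likewise 1779 lower and 2439 higher for RA in BAP1-AID, 989 and 1141 for RA in UTX-AID, 5228 and 5321 for the clones at 0 h, and 5209 and 5337 at 6 h. Leaving out each of the 16 libraries gave 63 to 86 lower and 15 to 27 higher. Of the 12 genes whose difference depended on the arm, the 2 higher became 1 with all 24 libraries, 0 with DESeq2 and 0 to 10 with a library left out (most without BAP1-AID -IAA 0 h replicate 2), and the 10 lower became 6 to 19 (fewest without BAP1-AID +IAA 6 h replicate 1, most without UTX-AID -IAA 0 h replicate 2 or 6 h replicate 1). The same-numbered libraries did not deviate together (correlations -0.020 to 0.048 over 28 pairs of groups), and the replicate block gave 74 lower and 20 higher, of which 71 and 19 were among the 72 and 21.

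Of the 93 genes, 56 were called in all 9 alternatives on the full set of libraries and with each of the 16 libraries left out. Of the 32 genes, 11 passed in every setting and 25 in every setting but the single IAA arms. A single left-out library ended the call of 36 of the 93 genes and of 7 of the 32. These 7 were Slc46a3 (0.99 without BAP1-AID +IAA 6 h replicate 1), Mmp25 (0.99 and 0.96 without UTX-AID 0 h replicate 1 of either arm), Nell2 (2.83 to 3.09 without BAP1-AID +IAA 0 h replicate 2 or 6 h replicate 1, or UTX-AID +IAA 0 h replicate 1) and Nlgn2 (0.86 to 0.99 without BAP1-AID -IAA 0 h or 6 h replicate 1, UTX-AID -IAA 6 h replicate 1 or UTX-AID +IAA 0 h replicate 1). Pknox2 (-1.47 to -1.30) and Igip (-1.15 to -1.02) were each lost without any 1 of 6 libraries, and Cldn5 (1.07 to 1.42) of 10. Of other genes in the text, Gm1322 was called in 3 of the 16 fits, Mucl3 in 6, Mansc1, Tcp11 and Arhgef26 in 9 and Cldn20 in 13. Among uncalled genes, with +IAA libraries only the difference turned to 0.46 for Gata4, 0.42 for Hoxb1 and 0.13 for Kdm6a. Kdm6a also turned to 0.050 with the GC and length correction, without or with the block, and Gata4 ranged from -0.35 to 0.24 without single libraries. The cause was not tested. Low counts at 0 h limit the fold changes of many Hox genes.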

Other observations

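The genes whose clone difference in RA response depended on the IAA arm included Cyp26b1, Ttn, 4932438A13Rik, Nbeal1, Rev3l, Gcc2, Eea1, Gm14853 and 1700028K03Rik, with a lower difference with IAA, and Hid1 and Fosb, with a higher one. Fosb was at 0 in both BAP1-AID -IAA libraries at 0 h and both BAP1-AID +IAA libraries at 6 h. Cyp26b1 was at 0 in both UTX-AID -IAA libraries at 0 h. The size of the arm difference is thus not known for these genes. In BAP1-AID the means at 0 h and 6 h were also low for Hid1 (0.619 and 0.604 CPM) and 1700028K03Rik (0.145 and 0.373 CPM). For Rev3l, the catalytic subunit of DNA polymerase zeta, the difference was 0.31 without and -0.86 with IAA, and for Eea1, an endosomal tether, 0.27 and -1.01. Of the 12 genes, 9 were higher in UTX-AID at 0 h, Cyp26b1 was lower, and Ttn and Fosb were not called.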
